A study of Mus musculus with 8 samples.

Results

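The genes described here encode 9 enzymes and cofactors that write, copy and remove DNA methylation: Dnmt1, Dnmt3a, Dnmt3b, Dnmt3l, Uhrf1, Tet1, Tet2, Tet3 and Tdg. They were selected by gene name, with earlier results of these data known, and each has 1 entry among the 22499 distinct gene names measured. Their mRNA was measured by RNA-seq in 8 libraries from 5 mouse pluripotent lines. R1 is an embryonic stem cell (ESC) line and has 2 libraries. The other lines are secondary induced pluripotent stem cells (iPSCs), reprogrammed with doxycycline from somatic cells of 8-week-old mice that had themselves been grown entirely from 1 doxycycline-inducible iPSC line by tetraploid complementation and so carry the inducible factors Oct4, Sox2, c-Myc and Klf4. Line 16-6 came from c-Kit-selected hematopoietic cells of the bone marrow and line 32 from adipocyte progenitors of inguinal fat, both mesodermal, with 2 libraries each. S8 came from epidermal cells (ectoderm) and T2 from the stomach lining (endoderm), with 1 library each. Each origin is represented by a single iPSC line, so that a difference between origins cannot be told apart from a difference between lines. R1 is the only ESC line, and the study describes the iPSC lines as sharing their genome and integration sites. A difference of the iPSC lines from R1 thus cannot be told apart from a difference in genetic background or from R1 as a line. All lines were grown in serum with LIF on mitomycin C-treated mouse embryonic fibroblast feeders from ICR embryos, and doxycycline had been withdrawn before the colonies were picked.

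DNA methylation in mammals is the addition of a methyl group to cytosine, mostly where cytosine precedes guanine (CpG). DNMT3A and DNMT3B place new methyl groups, helped by DNMT3L, a relative without catalytic activity that is abundant in ESCs and germ cells. After each round of replication, UHRF1 recognizes half-methylated DNA and brings in DNMT1, which copies the mark to the new strand. TET1, TET2 and TET3 oxidize 5-methylcytosine, and the glycosylase TDG cuts out the further oxidized bases so that repair restores plain cytosine. Mouse ESCs grown in serum hold more methylation than ESCs grown with inhibitors of MEK and GSK3, and the balance of these enzymes is one of the known differences between naive and more advanced pluripotent states. The libraries measure mRNA, not methylation.

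Levels are given as FPKM (mapped fragments scaled to transcript length and to library size), after division of all deposited values by 1 constant. Since FPKM is per length, levels may be compared between genes. Library totals were 899033 to 1259520 on this scale, and the confidence limits deposited with the values implied 15.5 to 16.7 fragments per library, in units of 1000000. S8 and T2 were listed by the study with far more reads than the other libraries and with a lower share of uniquely mapped reads. No R1 library was listed with such values. For these 2 libraries the line thus cannot be told apart from the listed read number or from the mapped share. All 8 pluripotency markers of a fixed list (Pou5f1, Sox2, Nanog, Esrrb, Zfp42, Dppa5a, Tdgf1 and Fgf4) were detected in every library, with Pou5f1 between 485 and 1020 FPKM. Markers of fibroblasts, the feeder cells, were detected too: the FPKM of 12 such genes summed to 1351 and 1469 in R1, 3475 and 3507 in 16-6, 376 and 382 in 32, 738 in S8 and 1031 in T2. None of the 12 was at 0 in any library, and 2 (Dcn and Lum, both matrix proteoglycans) were below 1 FPKM in both libraries of 32. Collagen Col3a1 went from 2.49 and 2.61 FPKM in 32 to 103 and 109 in R1, while Dcn was 217 and 204 in R1 and 32.9 and 33.3 in 16-6, so that the markers did not keep 1 ratio across lines. Whether these transcripts came from feeders or from the lines themselves was not tested, nor was their part in the differences below, and in bulk RNA fewer cells of a type cannot be told apart from less RNA per cell.

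The promoters of the members differ widely in CpG content, the substrate of the enzymes they produce. Sequences of the 250 bases before each start site were taken from RefSeq for all 9 genes, 16 start sites in total (build GRCm38.p6), and each was found once on its chromosome in mm9 (NCBIM37), the build of the files. Those of Dnmt3b, Dnmt3a, Tet1 and Tet2 are printed below, since these are the members that passed the test (adjusted p below 0.05) with at least a 2-fold difference from R1 in both S8 and T2. Each is written 5′ to 3′ on the strand of its gene, with every CpG in capitals. The Dnmt3b window lies at chr2:153474935-153475184 on the plus strand, the first Dnmt3a window at chr12:3806730-3806979 on the plus strand, the Tet1 window at chr10:62350073-62350322 on the minus strand and the Tet2 window at chr3:133207355-133207604 on the minus strand. None of these windows overlaps an annotated exon. The RefSeq start of Tet1 lies 7310 bases upstream of the start of the Tet1 entry in the files.
Dnmt3b: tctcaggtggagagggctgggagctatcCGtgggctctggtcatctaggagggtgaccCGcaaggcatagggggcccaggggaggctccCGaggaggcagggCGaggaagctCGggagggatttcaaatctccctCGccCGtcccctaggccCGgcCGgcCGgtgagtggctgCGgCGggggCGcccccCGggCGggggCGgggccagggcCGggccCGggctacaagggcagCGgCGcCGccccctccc
Dnmt3a: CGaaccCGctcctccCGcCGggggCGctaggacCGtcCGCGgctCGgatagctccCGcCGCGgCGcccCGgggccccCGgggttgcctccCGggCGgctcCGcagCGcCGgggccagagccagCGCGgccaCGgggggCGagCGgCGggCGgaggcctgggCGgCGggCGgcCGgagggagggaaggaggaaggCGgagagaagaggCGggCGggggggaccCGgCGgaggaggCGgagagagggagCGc
Tet1: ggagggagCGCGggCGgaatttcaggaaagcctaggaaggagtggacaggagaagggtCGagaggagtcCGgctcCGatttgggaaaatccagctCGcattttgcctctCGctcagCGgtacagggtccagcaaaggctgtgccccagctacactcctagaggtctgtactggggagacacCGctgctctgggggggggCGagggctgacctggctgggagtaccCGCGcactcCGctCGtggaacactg
Tet2: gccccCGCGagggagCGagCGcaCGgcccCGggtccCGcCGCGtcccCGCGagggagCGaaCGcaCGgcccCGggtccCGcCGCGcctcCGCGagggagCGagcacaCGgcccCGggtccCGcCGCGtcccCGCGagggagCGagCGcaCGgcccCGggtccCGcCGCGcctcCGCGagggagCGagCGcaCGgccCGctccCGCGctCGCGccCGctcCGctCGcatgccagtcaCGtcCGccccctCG

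The Tet2 window held 51 CpGs, more than 99.9% of the 32851 promoter windows of the same length, of which the median held 6. The first Dnmt3a window held 38 CpGs, the Dnmt3b window 21 and the Tet1 window 15. The 3 windows of Dnmt3l held only 5, 4 and 3, and those of Dnmt1 held 2, 7 and 26. CpG-rich promoters thus stood before members that were higher and before members that were lower in S8 and T2. The GC box GGGCGG, searched on both strands, occurred in the printed windows of Dnmt3b (3 times), Dnmt3a (5), Tet1 (1) and Tet2 (1), and in 32.7% of all windows. No printed window held TATAAA, which 12.4% of all windows held on either strand.

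All 9 genes were expressed in every library, from 1.65 FPKM (Tet3 in S8) to 502 FPKM (Dnmt3b in S8). In R1 the most abundant was Uhrf1 with 180.5 ± 1.88 FPKM (mean ± SD, n = 2), followed by Dnmt3l with 161 ± 23.7, Tet1 with 147 ± 0.574, Dnmt3b with 147 ± 13.5 and Dnmt1 with 93.3 ± 0.59. Tet2 stood at 32.0 ± 1.09, Dnmt3a at 26.9 ± 2.5, Tdg at 8.93 ± 0.295 and Tet3 at 2.01 ± 0.0291. The order was another one in S8, where Dnmt3b with 502 and Dnmt3l with 494 FPKM led and Tet1 reached 36.1. A moderated F test (limma) found a difference among the 5 lines for 8 of the 9 members at an adjusted p below 0.05, all but Tdg. Of all 13693 genes tested, 88.4% passed that test, so a difference somewhere among the lines was the rule and not particular to these genes. Confidence limits of replicate libraries were apart in 7 of the 26 replicate pairs for which both limits could be used (Dnmt3a, Dnmt3b and Dnmt3l in R1, Tet1 and Tdg in both 16-6 and 32), so that the spread between replicates exceeded the limits for these.

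**Figure D1:**
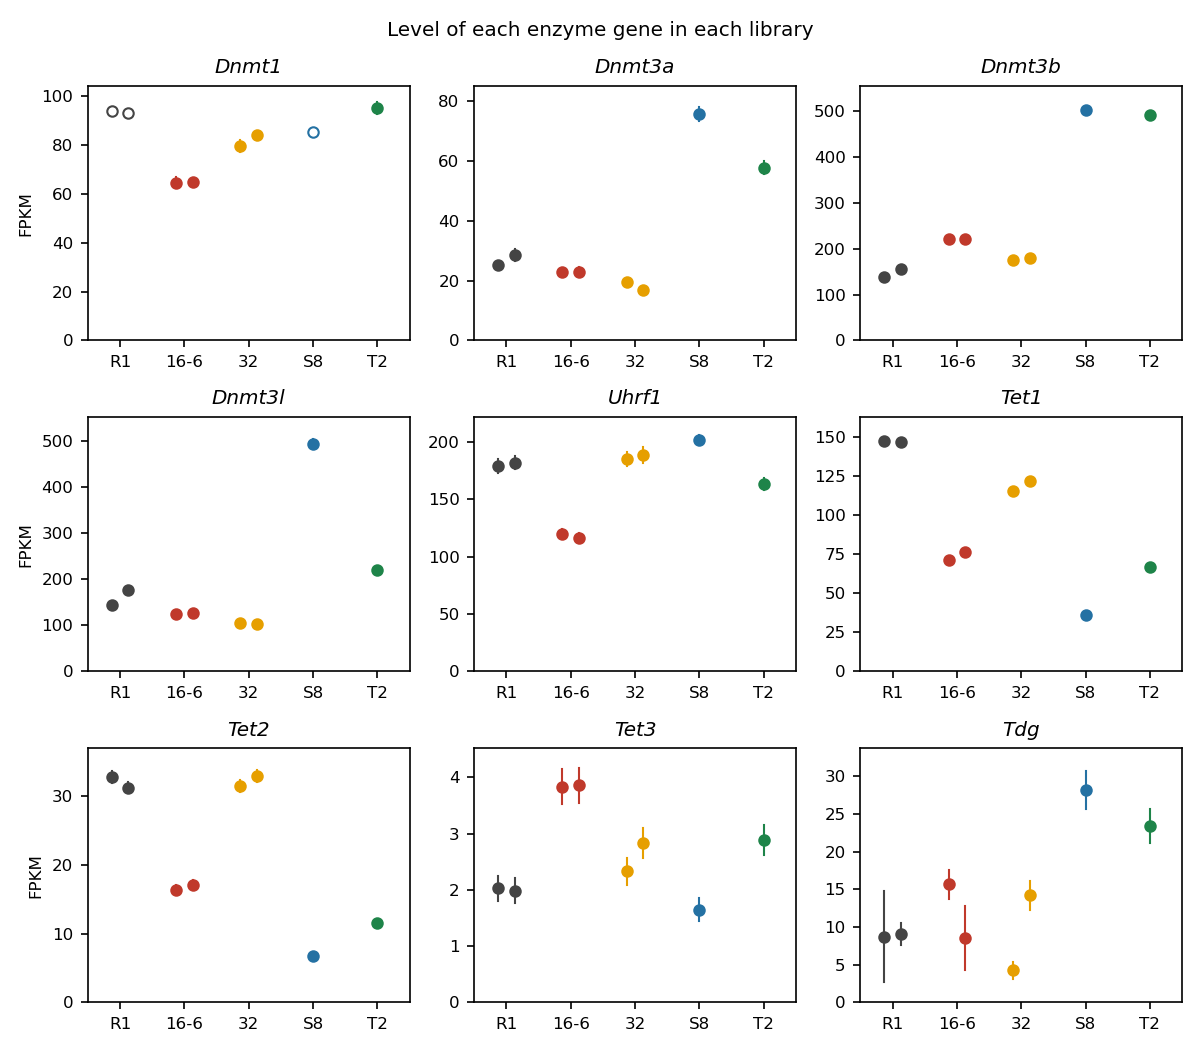
FPKM (vertical axes, from 0) of each of the 9 genes in each library of R1, 16-6, 32, S8 and T2 (horizontal axes). Each point is 1 library and each vertical line its confidence limits as deposited, often shorter than the point, and open points mark Dnmt1 values without a usable lower limit. S8 and T2 lie above all other libraries for Dnmt3a, Dnmt3b, Dnmt3l and Tdg and below all of them for Tet1 and Tet2.

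Dnmt3b, the main de novo methyltransferase of the early embryo, was lowest in R1 and highest in S8 and T2. It lies at chr2:153475190-153513466 in mm9, on the plus strand. The R1 libraries had 137 and 156 FPKM, those of 32 had 176 and 179, those of 16-6 had 222 and 220.2, S8 had 502 and T2 had 490.4. All 6 iPSC libraries were above both R1 libraries, which among the 9 members held for Dnmt3b alone and for 14.2% of all genes tested. Compared with R1 it was higher by 1.77 ± 0.08 on the log2 scale in S8 (± SE, adjusted p = 0.000122, limma), by 1.74 ± 0.08 in T2 (0.00023), by 0.59 ± 0.07 in 16-6 (0.00175) and by 0.28 ± 0.07 in 32 (0.0183). The 32 value depended on the processing. It was -0.06 when all libraries were set to equal FPKM totals, 0.06 after quantile normalization and 0.35 with median of ratios scaling. Without a filter on low values it was 0.28 and did not pass (adjusted p = 0.0569, limma). S8 and T2 did not differ from each other past the test (difference 0.03, 95% interval -0.21 to 0.28).

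Dnmt3a, the other de novo methyltransferase, is at chr12:3806980-3914443 on the plus strand. It was present at 25.2 and 28.7 FPKM in R1, 23.0 and 23.0 in 16-6, 19.5 and 17.0 in 32, 75.7 in S8 and 57.8 in T2. S8 and T2 were each at least 2.01 times as high as any of the other 6 libraries. In contrast to Dnmt3b, it was lower than R1 in 32, by 0.54 ± 0.09 on the log2 scale (log2 difference -0.54, adjusted p = 0.00508, limma), and higher than R1 in S8 (1.46 ± 0.11, adjusted p = 0.00034) and T2 (1.08 ± 0.11, adjusted p = 0.00132). In 16-6 its log2 difference from R1 was -0.21 (95% interval -0.45 to 0.02, adjusted p = 0.0978), and S8 and T2 did not differ past the test (0.38, 95% interval 0.06 to 0.71, adjusted p = 0.0725). Without the first R1 library the T2 difference fell below 2-fold (0.99 on the log2 scale). A noncoding gene on the opposite strand, Gm10485, shares up to 90 exonic bases with Dnmt3a, and the library kit named in the labels does not mark strand, so reads in that stretch cannot be assigned to either.

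Dnmt3l, the catalytically inactive cofactor, lies at chr10:77505032-77526360 on the plus strand. Its R1 libraries had 144 and 178 FPKM, 16-6 had 124 and 127, 32 had 104 and 102, S8 had 494 and T2 had 220.3. It thus separated S8 from T2, which Dnmt3b and Dnmt3a did not do past the test. The difference of S8 from T2 was 1.16 ± 0.14 on the log2 scale (adjusted p = 0.00582, limma), the only one among the members that was at least 2-fold between this pair, against 2.75% of all genes tested. It was 0.92 after quantile normalization and 0.90 with equal FPKM totals, so that the 2-fold call depended on the scaling, and with equal totals Tet1 passed 2-fold in its place (-1.12). Relative to R1 it was higher in S8 (1.62 ± 0.12, adjusted p = 0.000341) and in T2 (0.46 ± 0.12, adjusted p = 0.0261), and lower in 16-6 (-0.35 ± 0.10, adjusted p = 0.0346) and in 32 (-0.63 ± 0.10, adjusted p = 0.0044). The T2 and 16-6 calls did not hold in each fit that left out 1 replicate: the adjusted p without either replicate of 16-6 was 0.058 for T2 and 0.135 or 0.115 for 16-6. The immune regulator Aire on the opposite strand shares up to 67 exonic bases with Dnmt3l.

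The maintenance genes moved less, and mainly in 16-6 with the scaling used here. Dnmt1, the maintenance methyltransferase at chr9:20711650-20764332 on the minus strand, had 93.8 and 92.9 FPKM in R1, 64.4 and 64.6 in 16-6, 79.6 and 83.8 in 32, 85.3 in S8 and 94.9 in T2. Both 16-6 libraries were lower than all others, and the difference from R1 was -0.53 ± 0.04 on the log2 scale (adjusted p = 0.000493, limma). In 32 it was -0.19 ± 0.04 (adjusted p = 0.00967), in S8 -0.13 (95% interval -0.25 to -0.01, adjusted p = 0.059) and in T2 0.02 (-0.10 to 0.14, adjusted p = 0.692). The values for 32 and S8 depended on the scaling. With equal FPKM totals 32 was at -0.52 (adjusted p = 0.0013, limma), beside -0.53 in 16-6, and the median of all genes in 32 was -0.31. Quantile normalization gave -0.34 in 32 and -0.36 in S8, and median of ratios scaling gave -0.11 in 32. Cufflinks gave the status FAIL to Dnmt1 in both R1 libraries and in S8, with a lower limit of 0 there, so these 3 values carry no usable limits.

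Uhrf1, the reader that recruits DNMT1, lies at chr17:56442760-56462909 on the plus strand and showed the same low point. It had 179 and 182 FPKM in R1, 119.9 and 116 in 16-6, 185 and 188 in 32, 202 in S8 and 163 in T2. The 16-6 libraries were again lower than all others, with a log2 difference from R1 of -0.61 ± 0.04 (adjusted p = 0.000296, limma). The value for S8 was 0.16 ± 0.04 (adjusted p = 0.0233) and that for T2 was -0.15 ± 0.04 (adjusted p = 0.036), while 32 did not differ past the test (0.05, 95% interval -0.04 to 0.14). These small differences changed direction or were lost with the scaling: the S8 value was -0.17 after quantile normalization and 0.02 with equal FPKM totals, and the T2 value was -0.02 with equal FPKM totals. The value for 32 was -0.29 with equal FPKM totals, -0.19 after quantile normalization and 0.13 with median of ratios scaling (adjusted p of 0.00506, 0.00801 and 0.0243, limma). A stretch of chromosome X, chrX:118447609-118450192, matched 2590 bases of the Uhrf1 transcript at 97.7% identity, and 71.9% of the transcript had such a copy outside the gene. Reads that fit both places were not retained by the authors, who kept unique alignments, so the absolute level of Uhrf1 is uncertain.

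Genes of DNA replication moved with this pair in 16-6. All 12 genes of an S phase list were lower in 16-6 than in R1 past the test. Past it in either direction were 55.6% of all genes. The median log2 difference of the list was -0.42, against -0.03 over all genes. Among its genes are Mcm2 to Mcm7, the core of the replicative helicase, and the ribonucleotide reductase subunits Rrm1 and Rrm2. None of the 12 differed by 2-fold in that comparison. Rrm2 had 391.7 and 345 FPKM in R1 and 213 and 222 in 16-6. In the same comparison 7 of the 8 partners of maintenance methylation fell and none rose, among them the chromatin remodeler Hells (301 and 278 FPKM in R1, 188 and 199.7 in 16-6) and the sliding clamp Pcna (665 and 621 in R1, 444 and 459 in 16-6). The 8 pluripotency markers were all lower as well, with a median log2 difference of -0.73, while 9 of the 12 fibroblast markers were higher. The part of the feeder RNA in the lower levels of Dnmt1 and Uhrf1 in 16-6 was not tested. In S8, by contrast, 5 of the 12 S phase genes were higher and 1 was lower than R1. Cdc6 (16.7 and 17.7 FPKM in R1, 42.8 in S8) and cyclin E1, Ccne1 (129 and 130.0 in R1, 324 in S8), were up more than 2-fold. Of all genes 66.7% passed in S8, and 16.7% at 2-fold, so these counts do not exceed the share of all genes. Gins2 had 34.1 and 38.4 FPKM in R1, 61.4 in S8 and 38.2 in T2. Outside 16-6 the maintenance partners were mostly level with or above R1. In 32, 6 of 8 were higher and none lower, where 61.5% of all genes passed. In S8, 4 were higher and 1 lower (66.7% of all genes), and in T2 1 was higher (57.9%). Cdca7, the partner of Hells, had 86.2 and 87.7 FPKM in R1, 75.5 and 75.7 in 16-6, 105.5 and 110.0 in 32, 132 in S8 and 119.6 in T2.

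**Figure D2:**
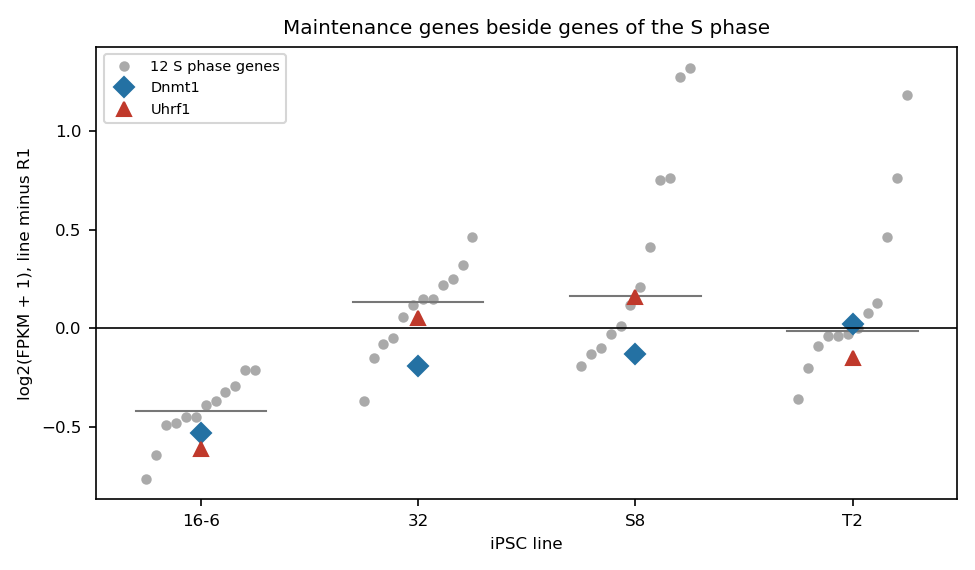
Difference from R1 in log2(FPKM + 1) (vertical axis) of 12 S phase genes (grey points, sorted within each line, with their median as a bar), Dnmt1 (blue diamonds) and Uhrf1 (red triangles) in each iPSC line (horizontal axis). In 16-6 all 12 genes, Dnmt1 (-0.53) and Uhrf1 (-0.61) lie below 0, while in 32, S8 and T2 the points lie on both sides.

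Both maintenance genes have a start site with a match to the same E2F motif, TTTCGCGC, in the 250 bases upstream of it, and no other member has one at its RefSeq start sites. E2F factors are known to drive genes of the S phase. The motif, searched on both strands, was found in 0.256% of all 32851 promoter windows, and any of 3 E2F motifs (this one, TTTGGCGC and TTTCCCGC) in 1.53%. The following are the 30 bases around each match in mm9, 5′ to 3′ on the strand of the gene, with the motif or its reverse complement in capitals. The Dnmt1 match lies in chr9:20757268-20757297 (minus strand) and begins 219 bases upstream of 1 of its 3 RefSeq starts, which is 7265 bases inside the Dnmt1 entry of the files. The Uhrf1 match lies in chr17:56443540-56443569 (plus strand) and begins 185 bases upstream of 1 of its 2 RefSeq starts, 976 bases inside the entry. A match describes the letters and does not show that a factor binds there.
Dnmt1: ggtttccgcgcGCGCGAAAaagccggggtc
Uhrf1: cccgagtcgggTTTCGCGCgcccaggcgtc

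Tet1, the most abundant of the dioxygenases in these cells, was higher in R1 than in any iPSC library. It lies at chr10:62267318-62342762 on the minus strand. The R1 libraries had 147 and 147 FPKM, those of 32 had 115 and 122, those of 16-6 had 71.2 and 76.2, T2 had 66.7 and S8 had 36.1. Every iPSC library was below both R1 libraries, which held for Tet1 alone among the members and for 16.8% of all genes tested. The log2 difference from R1 was -2.00 ± 0.06 in S8 (adjusted p = 6.67e-05, limma), -1.13 ± 0.06 in T2 (0.000294), -0.99 ± 0.05 in 16-6 (0.00021) and -0.31 ± 0.05 in 32 (0.00468). The neighbours 16-6 and T2 did not differ past the test (0.14, 95% interval -0.02 to 0.30), while all other neighbours in the order of levels did.

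Tet2, at chr3:133126641-133207354 on the minus strand, followed Tet1 except in 32. Its levels were 32.7 and 31.2 FPKM in R1, 31.4 and 32.9 in 32, 16.4 and 17.1 in 16-6, 11.5 in T2 and 6.79 in S8. R1 and 32 overlapped, with a log2 difference of 0.01 (95% interval -0.12 to 0.14, adjusted p = 0.907, limma), although equal FPKM totals gave -0.32 (adjusted p = 0.0166). The differences from R1 were -2.08 ± 0.06 in S8 (adjusted p = 6.5e-05), -1.40 ± 0.06 in T2 (0.000199) and -0.89 ± 0.05 in 16-6 (0.000278). Over the 8 libraries Tet1 and Tet2 had the highest correlation of any pair of members (Pearson r = 0.97 of log2 levels), and Dnmt3b had r = -0.93 with Tet2 and r = -0.89 with Tet1. The 8 libraries come from 5 lines and S8 and T2 lie at the end of each of these relations, so the coefficients describe these libraries.

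Tet3, the form best known from the oocyte and from differentiated tissues, was the lowest member throughout. It lies at chr6:83312368-83391672 on the minus strand. Levels were 2.03 and 1.99 FPKM in R1, 3.84 and 3.86 in 16-6, 2.33 and 2.84 in 32, 1.65 in S8 and 2.89 in T2. The 16-6 libraries were the highest, and their log2 difference from R1 was 0.69 ± 0.09 (adjusted p = 0.00242, limma). T2 was higher by 0.37 ± 0.11 (adjusted p = 0.0329, and 0.0848 and 0.093 without either R1 library), while 32 (0.25 ± 0.09, adjusted p = 0.056) and S8 (-0.18 ± 0.11, adjusted p = 0.187) did not pass. The summed FPKM of the fibroblast markers was highest in 16-6 as well, although Dcn, Lum and Col3a1 were lower there than in R1, and the share of Tet3 that came from feeders was not tested. Between 252 and 619 fragments stood behind each Tet3 value.

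Tdg, the thymine DNA glycosylase at chr10:82092583-82113239 on the plus strand, could not be compared with precision. The R1 libraries had 8.72 and 9.14 FPKM, those of 16-6 had 15.7 and 8.55, those of 32 had 4.24 and 14.2, S8 had 28.2 and T2 had 23.4. S8 and T2 were higher than the other 6 libraries, but the replicates of 32 differed more than 3-fold. The log2 difference from R1 was 1.56 in S8 (95% interval -0.16 to 3.28, adjusted p = 0.093, limma) and 1.30 in T2 (-0.42 to 3.02, adjusted p = 0.155). Without either library of 32 the log2 differences stayed at 1.56 in S8 and 1.30 in T2. Such a fit no longer holds the spread between the replicates of 32, so its test cannot decide whether Tdg differed. Near-identical copies of the transcript exist elsewhere in the genome: 86.4% of its 3502 bases matched other loci over at least 100 bases at 95% identity or more, and the longest match covered 3026 bases at chr15:82346686-82349711 with 98.6% identity. The deposited limits were wide too, from 2.69 to 14.8 FPKM in the first R1 library. Glt8d2, on the opposite strand, shares up to 367 exonic bases with Tdg. Of the other members, only Dnmt3b (10%) and Tet1 (1.94%) had any such copy outside the gene besides Uhrf1.

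Counted by line, 2-fold differences of members from R1 were found in S8 and T2 and not in 16-6 or 32. In S8, 5 of the 9 members passed the test with at least a 2-fold difference, against 16.7% of all genes: Dnmt3a, Dnmt3b and Dnmt3l were higher and Tet1 and Tet2 lower. In T2 it was 4 of 9 (Dnmt3a and Dnmt3b higher, Tet1 and Tet2 lower), against 10.5%. In 16-6 and in 32 no member passed at 2-fold, where 7.11% and 9.77% of all genes did, and Tet1 in 16-6 lay just short of it at 0.504 of the R1 level on the scale of FPKM + 1. After quantile normalization it passed, at -1.01 on the log2 scale. Without a fold minimum 6 members passed in S8 (66.7% of all genes), 7 in T2 (57.9%), 7 in 16-6 (55.6%) and 5 in 32 (61.5%), shares that for S8 and 32 are near those of all genes. S8 and T2 are single libraries, and their p-values rest on the assumption that they vary as the replicated lines do. The study calls the replicates biological, and the labels do not say whether they were separate cultures.

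**Figure D3:**
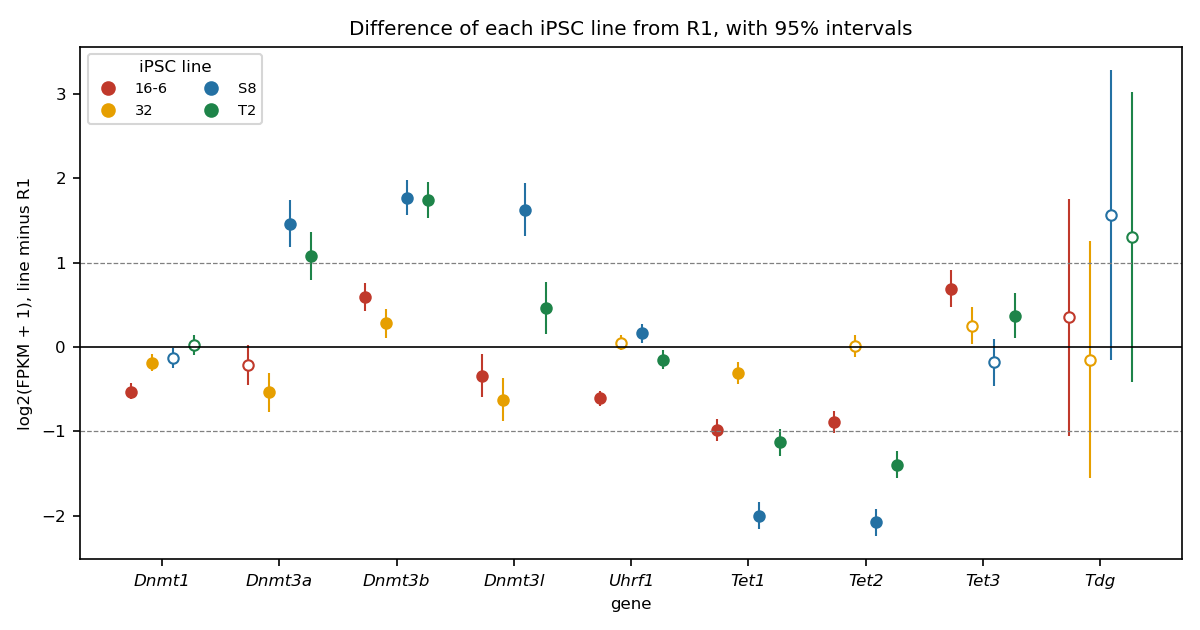
Difference of each iPSC line from R1 in log2(FPKM + 1) (vertical axis) for each of the 9 genes (horizontal axis), with 95% intervals from limma as vertical lines. Filled points have an adjusted p below 0.05 and dashed lines mark a 2-fold difference. Filled points of Dnmt3a, Dnmt3b, Tet1 and Tet2 lie beyond 2-fold in S8 and T2 and that of Dnmt3l in S8, the open points of Tdg lie beyond it in S8 (1.56) and T2 (1.30) with intervals that span more than 2 log2 units, and no point does in 16-6 or 32.

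Averaged over the 4 iPSC lines, 3 members were at least 2-fold away from R1, against 6.41% of all genes: Dnmt3b was higher (1.09 ± 0.06 on the log2 scale, adjusted p = 0.00015, limma) and Tet1 (-1.11 ± 0.04, adjusted p = 7.36e-05) and Tet2 (-1.09 ± 0.04, adjusted p = 7.6e-05) were lower. Without a fold minimum 8 of the 9 passed, against 65% of all genes. With R1 as the only ESC line, this mean cannot tell cell type apart from line or genetic background. The 2-fold calls of this mean rest on S8 and T2. Without S8 no member passed at 2-fold (Dnmt3b 0.87, Tet1 -0.81, Tet2 -0.76) and without T2 only Tet1 did (-1.10). Over 16-6 and 32 alone none did, but Dnmt3b (0.43, adjusted p = 0.0029, limma), Tet1 (-0.65, adjusted p = 0.000436) and Tet2 (-0.44, adjusted p = 0.00116) kept their direction and passed the test. Dnmt3a (-0.38) and Dnmt3l (-0.49) turned to lower than R1 over this pair.

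The pair of mesodermal lines, both with replicates, differed from each other in 7 members past the test (60.4% of all genes) and in none by 2-fold (10.3% of all genes). Dnmt3a, Dnmt3b and Tet3 were higher in 16-6, and Dnmt1, Uhrf1, Tet1 and Tet2 were higher in 32. Of these, the Dnmt1 difference was -0.01 with equal FPKM totals (adjusted p = 0.939) and that of Tet3 0.11 after quantile normalization (adjusted p = 0.319). Dnmt3a did not pass with the replicate number as a block (adjusted p = 0.0556), without a filter on low values (0.0916), or without either 16-6 library or the second library of 32 (0.106 to 0.108). Dnmt3b did not pass without either 16-6 library or the first library of 32 (0.0586 to 0.0644). The largest was Tet2, with a log2 difference of -0.90 ± 0.05 (adjusted p = 0.000145, limma). All 12 fibroblast markers were at least 2-fold higher in 16-6 than in 32. Between S8 and T2, 5 members passed the test (34.5% of all genes): Dnmt3l and Uhrf1 were higher in S8, and Tet1 (-0.87 ± 0.07), Tet2 (-0.68 ± 0.07) and Tet3 (-0.55 ± 0.12) were lower. Across all lines, S8 and T2 lay above the other 6 libraries for Dnmt3a, Dnmt3b, Dnmt3l and Tdg (4 of 9, against 18.5% of all genes) and below them for Tet1 and Tet2 (2 of 9, against 11.6%).

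The proportion of Dnmt3 to Tet genes was also described within single libraries, where no scaling between libraries enters. The summed FPKM of Dnmt3a, Dnmt3b and Dnmt3l was 1.68 and 2.02 times that of the 3 Tet genes in R1 and 2.01 and 1.89 times in 32. It was 4.04 and 3.81 times in 16-6, 9.48 times in T2 and 24.1 times in S8. R1 and 32 overlapped in this ratio, and 16-6, T2 and S8 lay above both. In 16-6 the Tet sum was 91.4 and 97.1 FPKM, against 182 and 180 in R1. The Dnmt3 sum moved less there, with 369 and 370 against 306 and 362.5. In S8 (1072 and 44.5) and T2 (768.6 and 81.1) the Dnmt3 sum was higher and the Tet sum lower than in R1. The proportion within each family shifted as well. Dnmt3a stood at 0.183 and 0.184 of Dnmt3b in R1 and between 0.0945 and 0.151 in all iPSC libraries. Dnmt3l per de novo enzyme (Dnmt3a plus Dnmt3b) was 0.887 and 0.96 in R1 and 0.855 in S8, but between 0.402 and 0.534 in the others. Tet3 made up little beside Tet1 and Tet2, at 0.0113 and 0.0112 of their sum in R1 and 0.0438 and 0.0414 in 16-6. The ratio of Uhrf1 to Dnmt1 varied least, from 1.72 in T2 to 2.37 in S8.

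**Figure D4:**
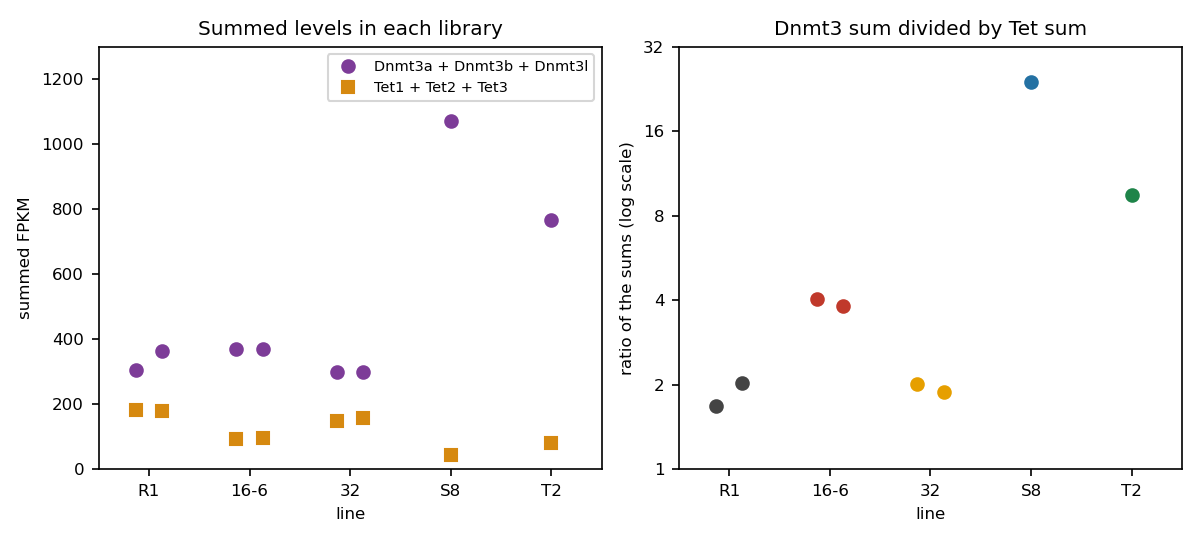
Left: summed FPKM (vertical axis) of Dnmt3a, Dnmt3b and Dnmt3l (purple circles) and of Tet1, Tet2 and Tet3 (orange squares) in each library of each line (horizontal axis). Right: the first sum divided by the second in each library, on a log axis, with 1.68 and 2.02 in R1, 9.48 in T2 and 24.1 in S8.

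Other genes of the methylation pathway were described by lists. Of 8 genes listed as methyl-CpG binding proteins or their relatives, 7 differed from R1 in S8 past the test (66.7% of all genes), 6 of them lower. The exception was Mbd3, a subunit of the NuRD complex, which had 61.5 and 72.8 FPKM in R1, 93.2 and 94.0 in 16-6, 103 and 100.2 in 32, 203 in S8 and 123 in T2 and was higher than R1 in every iPSC line past the test. Zbtb38 was at least 2-fold lower in S8 (6.99 and 6.73 FPKM in R1, 1.75 in S8). Zbtb4 was at least 2-fold lower in 32 (2.07 and 1.94 in R1, 0.269 and 0.340 in 32). In the other lines 6 of the 8 passed in 16-6 (5 higher), 6 in 32 (2 higher) and 5 in T2 (1 higher), against 55.6%, 61.5% and 57.9% of all genes.

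Among the TET partners and enzymes that supply their co-substrate, 6 of 7 genes were tested and only Ogt, the O-GlcNAc transferase that binds TET proteins, differed by 2-fold from R1 in any line. Its levels were 92.0 and 87.7 FPKM in R1, 83.4 and 84.1 in 16-6, 94.1 and 98.8 in 32, 57.9 in T2 and 37.0 in S8. It fell with Tet1 and Tet2 in S8 (log2 difference -1.26, adjusted p = 0.000103, limma) and in T2 (-0.62, adjusted p = 0.000843). The isocitrate dehydrogenase Idh2 had 46.1 and 53.7 FPKM in R1, 36.9 and 40.0 in 16-6 and 62.8 and 62.5 in 32. Vprbp rose to 32.7 in S8 and 38.9 in T2 from 21.5 and 24.9 in R1. In the list of base excision repair and other demethylation factors, 14 of 15 genes were tested and between 8 and 10 differed from R1 in each line, a share near the 55.6% to 66.7% of all genes. At 2-fold, Neil3 was lower in 16-6 and Gadd45g and Apobec1 were lower in 32. The stress-inducible Gadd45g was 31.7 and 31.7 FPKM in R1, 8.64 and 9.21 in 32, 49.6 in S8 and 39.1 in T2. Xrcc1, the scaffold of single-strand break repair, was 33.2 and 33.3 in R1, 60.7 in S8 and 43.4 in T2. Apobec1 was lower in 16-6 and 32 (5.53 and 5.25 FPKM in R1, 2.47 and 2.05 in 16-6, 1.64 and 1.80 in 32).

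The methyl donor enzymes differed from R1 by 2-fold only through Mat2a, which makes S-adenosylmethionine and had 286 and 292 FPKM in R1 and 618 and 621 in 32. Of the 6 genes of this list 5 passed the test in 16-6 (2 higher), 3 in 32 (2 higher), 5 in S8 (3 higher) and 5 in T2 (2 higher). Of all genes, 55.6% passed in 16-6, 61.5% in 32, 66.7% in S8 and 57.9% in T2. Methionine synthase, Mtr, was lower in S8 (18.2 and 20.03 FPKM in R1, 9.75 in S8). All 4 regulators of methylation in ESCs passed the F test for a difference among the lines, as did 88.4% of all genes. Dppa3, which shields DNA from maintenance by UHRF1, had 50.4 and 55.7 FPKM in R1, 98.7 and 107 in 16-6 and 248.6 and 230.5 in 32. Prdm14, a repressor of Dnmt3b and Dnmt3l in naive cells, was lower in 16-6 (3.58 and 3.96 FPKM), S8 (4.05) and T2 (4.13) than in R1 (8.14 and 9.15), and higher in 32 (10.9 and 10.99). Its log2 differences from R1 in these 3 lines were -1.02 in 16-6, -0.93 in S8 and -0.91 in T2 (adjusted p of 0.000561, 0.000819 and 0.0014, limma). In these 3 lines Dnmt3b was higher than in R1 (0.59, 1.77 and 1.74). Dnmt3l was lower in 16-6 (-0.35) and higher in S8 (1.62) and T2 (0.46). In 32, Prdm14 was higher than in R1 (0.31, adjusted p = 0.0201, limma). Dnmt3b was at 0.28 there (adjusted p = 0.0183, limma), a value that depended on the processing as given above, and Dnmt3l was lower (-0.63). A link between Prdm14 and these genes was not tested. Zfp57, which keeps imprints methylated, had 165 and 162 FPKM in R1, 147 and 164 in 32, 78.9 and 74.7 in 16-6, 98.4 in S8 and 57.1 in T2.

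Germline genes that are silenced through promoter methylation did not move in the same direction in all lines. The median log2 difference of the list from R1 was -0.79 in 16-6, -0.30 in 32, -0.16 in T2 and 0.34 in S8. Over all genes it was -0.03 in 16-6, -0.02 in 32, -0.03 in T2 and -0.03 in S8. Of 12 such genes 9 were tested. In S8, where the Dnmt3 genes were highest, 5 were higher than R1 past the test and 1 was lower. In T2, 3 were higher and 4 lower, in 16-6 it was 1 and 6, and in 32 it was 2 and 5. These are 6 of 9 in S8 and 7 of 9 in each other line, against 66.7% of all genes in S8, 57.9% in T2, 55.6% in 16-6 and 61.5% in 32. Sycp3, part of the meiotic chromosome axis, was at least 2-fold lower in all 4 iPSC lines: it had 21.2 and 26.5 FPKM in R1, 6.74 and 4.83 in 16-6, 9.75 and 11.6 in 32, 9.75 in S8 and 6.78 in T2. Hormad1 was higher in S8 (6.69 and 7.59 FPKM in R1, 21.0 in S8, log2 difference 1.43), and Mael was lower in 16-6 (18.5 and 19.9 in R1, 9.78 and 8.42 in 16-6).

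Markers of neighbouring cell states did not follow the same order of lines. The primed epiblast gene Fgf5 had 6.56 and 6.94 FPKM in R1, 15.2 and 16.6 in 16-6, 22.3 and 24.0 in 32, 13.3 in S8 and 28.3 in T2. Brachyury (T) was high in 16-6 and 32 (11.6 to 18.8 FPKM) and low in R1, S8 and T2 (0.578 to 2.85), and Eomes likewise (8.50 to 15.3 against 2.53 to 4.72). Otx2, the fourth gene of the primed epiblast list to be tested, was lower than R1 past the test in all 4 lines, with 62.1 and 65.3 FPKM in R1, 20.7 and 20.1 in 16-6, 34.5 and 37.1 in 32, 50.1 in S8 and 45.0 in T2. Zfp42 and Esrrb, markers of the naive state, were lower in 16-6, S8 and T2 than in R1 past the test and by at least 2-fold, with Zfp42 at 541 and 544 FPKM in R1, 141 and 144 in 16-6, 119 in S8 and 92.9 in T2. In 32 Zfp42 was lower by at least 2-fold too (258 and 278 FPKM, log2 difference -1.02, adjusted p = 0.000104, limma). Esrrb had 184 and 175 in R1, 86.4 and 87.1 in 16-6, 172 and 178 in 32, 60.3 in S8 and 53.4 in T2. Nanog was 177 and 174 FPKM in R1, 153 and 159.7 in 16-6, 321 and 327 in 32, 80.8 in S8 and 112 in T2. Markers of primitive endoderm were low, with Gata6 between 0.339 and 1.52 FPKM and Foxa2 between 0.239 and 1.32. Dab2, which fibroblasts express too, had 12.2 and 13.2 FPKM in R1, 10.95 and 10.52 in 16-6, 1.59 and 1.98 in 32, 3.47 in S8 and 5.22 in T2.

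Across all genes with at least 1 FPKM in every library, the likeness of expression to each member was described by the Pearson correlation of log2 levels over the 8 libraries. Closest to Dnmt3b were Jph4, Rpn1 and Mex3d (r = 0.9937, 0.9937 and 0.9917). Closest to Dnmt3a were Stoml1, Slc25a11 and Gtf2ird1 (0.9919 to 0.9874), and to Dnmt3l Sumf2, 0610009B22Rik and Atp6v0d1 (0.9917 to 0.9876). Tet1 was closest to Frrs1, Plekhm3 and Zfp292 (0.9961 to 0.9937) and Tet2 to Agfg1, Zyg11a and Ly75 (0.9987 to 0.9952). Tet3 was closest to Map4k5, Kif1a and Spire1 (0.9863 to 0.9839). For Tdg no gene came higher than Tmem128 with 0.9429. These are the highest of 10993 coefficients over 8 points and are given as descriptions only.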

How the data were processed

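RNA-seq was analysed for 8 libraries from 5 lines. The deposited FPKM and confidence limits were made by the authors, who aligned the reads with TopHat 2.0.4 (UCSC genes, mm9), retained those that aligned uniquely and ran Cufflinks, for which the submitters' notes name version 2.0.0 and the study's methods a later one. Its options are not given in the sources used here. The deposited FPKM summed to 1.14408e+10 to 1.60283e+10 per library with nearly equal upper quartiles, so all values were divided by 12725.7, which set the median total to 1000000. The labels describe the extracted material as embryo, the study's methods as cell pellets. Libraries were grouped by the line in their titles.

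Of 22878 entries, 13693 were tested, those that reached FPKM 1 in some library. Values of log2(FPKM + 1), which understates changes of low genes, were fitted with limma 3.58.1 (lmFit, eBayes with a trend) in R 4.3.3, over 5 groups with 3 residual degrees of freedom. Past the test means a Benjamini-Hochberg adjusted p below 0.05 over all genes, and 2-fold calls also an absolute log2 difference of at least 1. On simulated data for 16-6 against R1, 100% of genes changed by 1.5 log2 units were recovered with 0 false 2-fold calls. Each simulated gene had the typical noise of its level, equal in all lines. The simulation checks that the fit runs correctly and does not give the sensitivity or false-call rate in these data. Counts were not in the files. Fragments behind a value were estimated from its upper limit, as if sampling were the only noise. All 9 members and the gene lists were chosen with earlier results of these data known. From each list the 3 genes with the widest range between line means among those past the F test were named, and Rrm2, Pou5f1, Otx2 and Neil3 were added after their values were seen. A gene that this rule selects is not reported here. Starts in the files count from 0, as 419 of 597 short RNA genes matched GENCODE that way and 5 otherwise. Coordinates are printed from 1. Transcripts were searched against mm9 with blastn 2.17.0. Alternatives were a pseudocount of 0.1, 2 other filters, 3 scalings, no trend, no fold minimum, leaving out each replicate or a line from the mean, and a replicate block.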

Additional observations from a re-analysis of the deposited data

Results flagged for a closer look

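Effects against R1 that passed the test in opposite directions in 2 lines were found for Dnmt3a, Dnmt3l and Uhrf1. Pairs of lines were listed only where the difference between them passed too, in the same fit (limma, adjusted over all genes). The p-values below were thus part of the selection and are no separate test of it. Dnmt3a was higher than R1 in S8 and T2 and lower in 32, and the lines differed by 2.00 ± 0.11 (S8 against 32, adjusted p = 0.00023) and 1.62 ± 0.11 (T2 against 32, adjusted p = 0.000666) on the log2 scale. Dnmt3l was higher than R1 in S8 and T2 and lower in 16-6 and 32. S8 exceeded 16-6 by 1.97 ± 0.12 (adjusted p = 0.000202) and 32 by 2.25 ± 0.12 (adjusted p = 0.000227), while T2 exceeded 16-6 by 0.81 ± 0.12 (adjusted p = 0.00501) and 32 by 1.09 ± 0.12 (adjusted p = 0.00221). Uhrf1 was slightly higher than R1 in S8 and lower in T2 and 16-6, with differences of 0.31 ± 0.05 (S8 against T2, adjusted p = 0.0115) and 0.77 ± 0.04 (S8 against 16-6, adjusted p = 0.000158). The first of these was 0.07 after quantile normalization (adjusted p = 0.326) and 0.05 with equal FPKM totals (adjusted p = 0.639). The difference of T2 from R1 behind it (-0.15) did not pass in any fit that left out 1 replicate (adjusted p of 0.0531 to 0.0809), with median of ratios scaling (0.0671) or without a trend (0.0715). S8 and T2 are single libraries, and no group was large enough to look for libraries apart from their own group.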

How the results depend on the processing

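Of 122 alternative counts of members called, 109 stayed within 1.5 times the reported count. Without a fold minimum the counts became 7 (16-6 against R1), 5 (32), 7 (T2), 8 (mean of the iPSC lines), 7 (16-6 against 32) and 5 (S8 against T2). Quantile normalization gave 1 for 16-6 against R1 (Tet1) and 0 for S8 against T2, and leaving out 1 replicate gave 0 to 1 for 16-6 against R1 (Tet1 without 16-6 replicate 2) and 0 to 1 for 16-6 against 32 (Tdg without 32 replicate 2). The mean of the iPSC lines gave 0 without S8, 1 without T2 and 0 without both.

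Of 918 alternative log2 differences of members, 20 changed sign. In 10 of them neither value passed the test: Tdg (4), Tet2 in 32 against R1 (3), Tet3 in S8, Dnmt1 in T2 and Dnmt3b in S8 against T2. In the other 10 the reported or the alternative value passed. With equal FPKM totals these were Dnmt3b (-0.06), Uhrf1 (-0.29) and Tet2 (-0.32) in 32 against R1. With quantile normalization they were Uhrf1 in 32 (-0.19) and in S8 (-0.17) against R1, and Dnmt3b in S8 against T2 (-0.33). In the mean of the iPSC lines they were Dnmt3l without S8 (-0.17), Dnmt3a (-0.38) and Dnmt3l (-0.49) without S8 and T2, and Uhrf1 without 16-6 (0.02). With equal totals the median of all genes was -0.31 in 32 against R1 (-0.02 as reported), which bears on its 3 reversals. The cause of the others was not tested, apart from the lines left out of the mean. The differences of Dnmt3a, Dnmt3b, Tet1 and Tet2 from R1 in S8 and T2 kept their direction and passed the test under each alternative run. Each of these runs kept the single library of S8 or T2 behind the difference, so they cannot show whether another library would repeat it.

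The replicate numbers did not pair the samples (correlations of -0.097, 0.001 and 0.028 between replicate differences of R1, 16-6 and 32), and a fit with the number as a block gave 0 members at 2-fold in 16-6 against R1, in 32 against R1 and in 16-6 against 32, as without it. Single libraries of S8 and T2, and the few fragments behind Tet3 and Tdg, limit precision.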
